A study of Mus musculus with 8 samples.

Results

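The 4 Hox gene clusters, HoxA, HoxB, HoxC and HoxD, were examined for methylated DNA in mouse small-intestinal epithelium. The members were all peaks, the stretches of genome where pulled-down fragments piled up, that overlapped HoxA (chromosome 6, 52095000 to 52225000), HoxB (chromosome 11, 96045000 to 96235000), HoxC (chromosome 15, 102740000 to 102875000) or HoxD (chromosome 2, 74480000 to 74610000) in mm9 coordinates. Merging the peaks of all libraries wherever they shared at least 1 bp gave 50 Hox regions out of 475861 regions in the genome. HoxB held 27 of them, HoxD 12, HoxA 8 and HoxC 3, and in each cluster they are numbered from the lower coordinate upward (HoxA region 1 to HoxA region 8, and so on). The intervals span 585 kb and house 38 Hox genes, 10 each in HoxA and HoxB and 9 each in HoxC and HoxD.

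The study mapped DNA methylation with MBD sequencing: fragments carrying methylated CpGs are captured on a protein domain that binds them, then sequenced. The 8 libraries formed 4 groups of 2 biological replicates, all from small intestine of mice of mixed C57BL/6 and CD1 strain. The E12.5 and E14.5 groups, named for the embryonic day, were epithelial cells sorted as EpCAM-positive, CD31-negative and CD45-negative, and the sources used here give no genotype for them. The adult groups came from Lgr5EGFP-Cre-ERT males at postnatal day 60, in which the Lgr5 gene of crypt stem cells drives EGFP. They were stem cells of the intestine (ISC), taken as the cells with high EGFP, and enterocytes, sorted by the same EpCAM, CD31 and CD45 gate with no marker particular to enterocytes. Peak lists hold no expression values, so the cell types could not be checked against their markers.

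Hox genes encode homeodomain transcription factors that give cells their position along the body axis, and in the gut they help set the regions of the tube. Genes at the low-numbered end of a cluster act more anteriorly and earlier than those at the high-numbered end, the rule known as collinearity. Their promoters are rich in CpG, and Hox clusters in tissues that do not use them are commonly kept off by Polycomb proteins on DNA that carries little methylation. In the RefSeq gene table (GRCm38.p6), with rising position HoxA ran from Hoxa2 to Hoxa13, HoxB from Hoxb13 to Hoxb1, HoxC from Hoxc13 to Hoxc4 and HoxD from Hoxd13 to Hoxd1. Only this order was used, and no peak was placed on a gene, because the table is of another build than the peaks.

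MBD capture depends on CpGs, so the CpG content of the Hox promoters is shown first. The RefSeq promoter table (GRCm38.p6) held 24 promoters of 22 of the 38 genes. In the 250 bases before the start site, the letters CG, which read the same on both strands, were present in 100% of the Hox promoters and in 92.1% of all 32851 promoters of the table. The median ratio of observed to expected CpGs was 0.721 in Hox promoters and 0.374 in the table. Such a ratio over 0.6 together with a GC content over 50% was met by 11 of the 24 Hox promoters (45.8%) and by 30.8% of all. These counts describe sequence and say nothing of methylation at those promoters. The promoter with the most CpGs in each cluster is printed below, followed by the Hox promoter with the fewest, with every CG in capitals and positions in GRCm38.p6.
Hoxa13, chr6:52260881-52261130, minus strand: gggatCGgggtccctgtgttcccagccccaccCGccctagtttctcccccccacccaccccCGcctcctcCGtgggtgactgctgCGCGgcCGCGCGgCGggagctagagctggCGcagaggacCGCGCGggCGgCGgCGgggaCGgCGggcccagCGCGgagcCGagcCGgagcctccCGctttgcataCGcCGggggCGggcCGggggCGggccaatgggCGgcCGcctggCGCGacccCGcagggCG
Hoxb4, chr11:96318017-96318266, plus strand: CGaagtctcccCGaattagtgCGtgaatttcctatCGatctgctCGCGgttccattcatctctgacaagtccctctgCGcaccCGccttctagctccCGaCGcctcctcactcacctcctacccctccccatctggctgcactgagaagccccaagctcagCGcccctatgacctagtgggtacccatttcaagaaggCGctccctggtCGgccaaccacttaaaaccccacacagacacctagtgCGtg
Hoxc4, chr15:103034145-103034394, plus strand: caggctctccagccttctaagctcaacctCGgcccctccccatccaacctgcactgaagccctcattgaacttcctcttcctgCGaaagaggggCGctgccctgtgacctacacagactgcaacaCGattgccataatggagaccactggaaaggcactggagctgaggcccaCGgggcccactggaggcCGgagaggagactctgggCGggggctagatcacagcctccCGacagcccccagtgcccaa
Hoxd13, chr2:74667975-74668224, plus strand: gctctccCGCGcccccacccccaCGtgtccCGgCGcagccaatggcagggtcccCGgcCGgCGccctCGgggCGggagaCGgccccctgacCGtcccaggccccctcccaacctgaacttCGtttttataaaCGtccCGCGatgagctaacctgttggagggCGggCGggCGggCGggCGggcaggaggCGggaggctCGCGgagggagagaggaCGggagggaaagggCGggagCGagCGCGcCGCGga
Hoxd11, chr2:74679308-74679557, plus strand: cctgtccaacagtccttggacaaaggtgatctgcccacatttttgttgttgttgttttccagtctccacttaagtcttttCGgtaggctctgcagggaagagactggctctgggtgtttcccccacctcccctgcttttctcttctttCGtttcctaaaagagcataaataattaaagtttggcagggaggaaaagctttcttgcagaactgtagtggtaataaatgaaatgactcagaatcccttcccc
Hoxa13 and Hoxd13, the last genes of their clusters and regulators of the hindgut and limb tips, had 35 and 31 CpGs in these bases. Hoxb4 had 14 and Hoxc4, which was the only HoxC promoter in the table, had 8. This Hoxd11 promoter had 2, while a second promoter listed for Hoxd11 had 20.

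Libraries differed in depth and in the length of their lists, and that bears on every count of regions. Totals ranged from 31438314 to 55442400 tags (aligned reads), and lists from 84990 peaks in E12.5 replicate 2 to 338262 in E14.5 replicate 2. The E12.5 libraries were the deepest but had 7.46% and 9.84% of their tags in peaks, against 23.8% to 38.9% in the other 6. ISC replicate 1 was the lowest of those 6 on that measure, and E14.5 replicate 2 had the shortest peaks, with a median of 272 bp. A region with no peak means that its tags did not pass the cutoff of the peak caller in that library.

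The Hox clusters were poor in peaks. They held 8.55 regions per 100 kb, against 19.1 over the autosomes. By cluster the density was 14.2 in HoxB, 9.23 in HoxD, 6.15 in HoxA and 2.22 in HoxC. Peaks covered 0.272% to 4.17% of the bases of the 4 intervals over the 8 libraries, which was 0.141 to 0.616 times the share of autosomal bases covered in the same library. Each interval was also set against its flanks, windows of its own length on both sides. Coverage was below that of the flanks and below that of the autosomes in 8 of 8 libraries for HoxA, HoxB, HoxC and HoxD alike. The mean gap to the flanks was -4.36 ± 1.2 percentage points for the 4 together (SD over the 8 libraries, which are of 4 groups). With lists cut to equal length the gap was -1.94 percentage points, and HoxA was then below its flanks in 6 of 8 libraries.

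**Figure D1:**
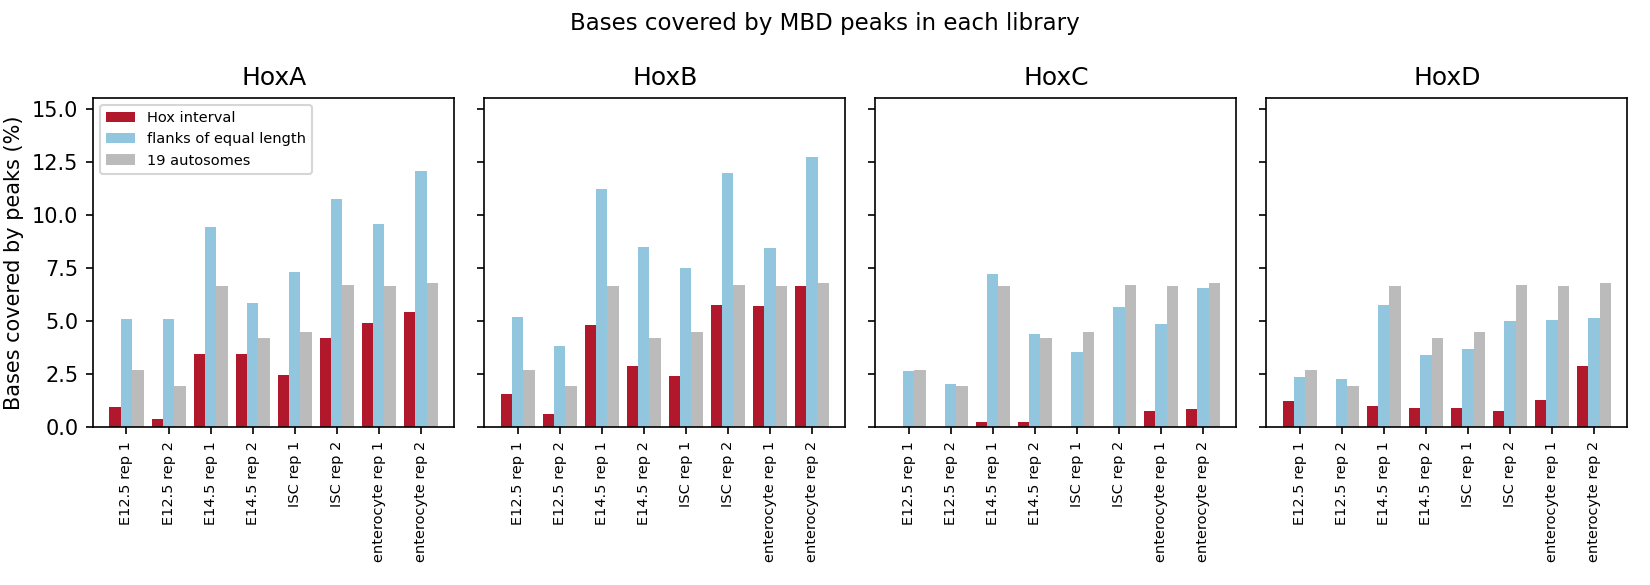
Percent of bases covered by MBD peaks (y axis) in each of the 8 libraries (x axis) for the 4 Hox intervals (red), their flanks of equal length (blue) and the 19 autosomes (grey). The red bar is below the blue and the grey bar in every library of every cluster, and HoxC has no red bar in the E12.5 and ISC libraries.

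HoxC was the emptiest. No peak in any library lay between 102730276 and 102856662 on chromosome 15, a stretch of 126 kb that took up 86.4% of the interval. Of 471314 gaps between neighbouring regions on the autosomes, 163 (0.0346%) were as long, assembly gaps included, and the median gap was 2.19 kb. HoxD had a peak-free stretch of 68.0 kb (74484202 to 74552225 on chromosome 2), with 1042 gaps as long. In HoxA it was 57.1 kb (52170699 to 52227829 on chromosome 6) and in HoxB 52.6 kb (96111070 to 96163666 on chromosome 11), with 1714 and 2095 gaps as long. Each of these 4 stretches is in the longest 0.5% of autosomal gaps, HoxB at 0.445%. Each was picked as the gap with the most bases inside its interval, so a high rank among single gaps does not show that it is unusual. The longest gaps of other windows of equal length were not compared.

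The peaks that did occur in HoxA, HoxC and HoxD lay toward the end of the low-numbered genes. In HoxA, 98.5% ± 2.85 of the covered bases (mean ± SD, 8 libraries) were in the lower-coordinate 65 kb, the side on which the gene order begins with Hoxa2 and Hoxa3. The last 32.5 kb, on the side of Hoxa13, had no peak in any library. In HoxC all 3 regions were in the last 33.75 kb, where the order ends with Hoxc5 and Hoxc4. In HoxD, 7 of the 12 regions were in the last 32.5 kb, on the side of Hoxd1. The lower-coordinate 65 kb of HoxD, the side of Hoxd13, had peaks in E14.5 replicate 1, where it held 53.2% of the covered bases, and in enterocyte replicate 2, and in no other library. HoxB differed from the other 3, with 55.2% ± 15.0 of covered bases in the lower-coordinate 95 kb and regions on both sides of its empty stretch. These are descriptions with no test.

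**Figure D2:**
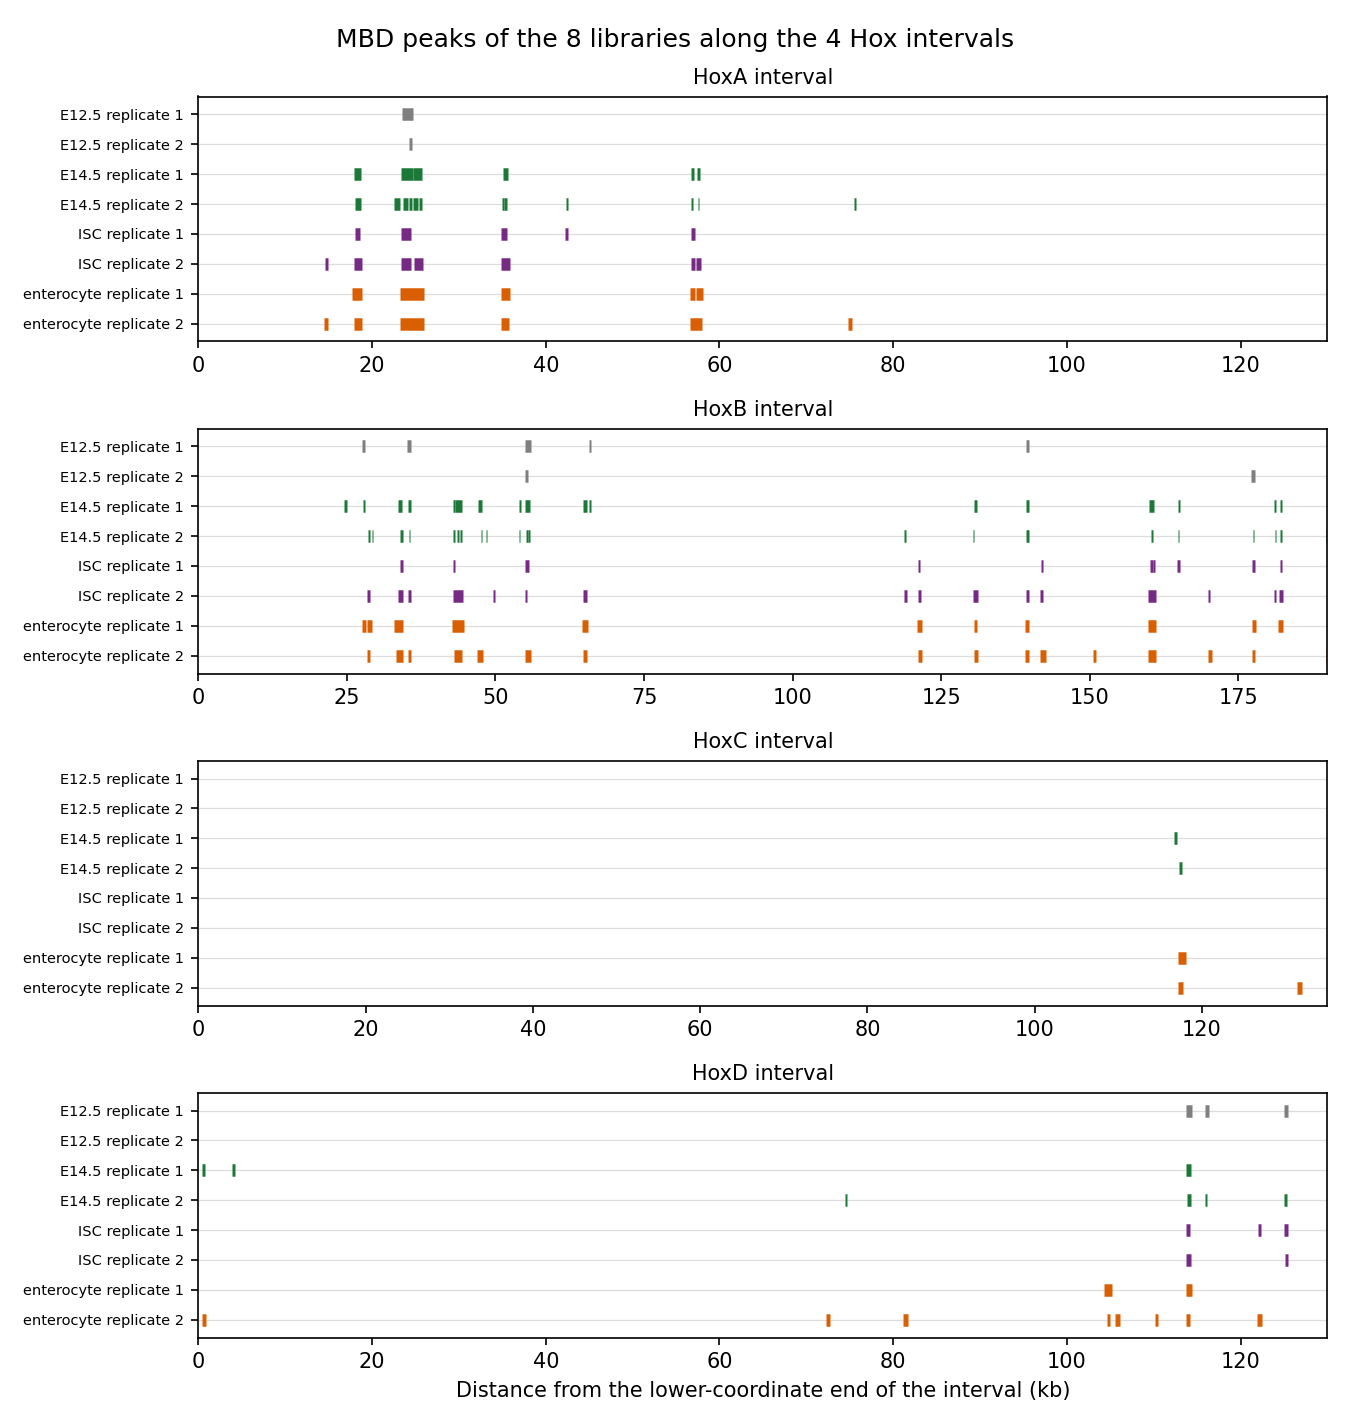
Peaks (coloured bars) of the 8 libraries (rows) along the 4 Hox intervals, with the distance in kb from the lower-coordinate end on the x axis. HoxA peaks lie mostly in the left part of the panel, HoxC and HoxD peaks gather near the upper end, and HoxB has peaks on both sides of an empty stretch.

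HoxA held the Hox region with the highest mean number of tags, which was also the longest. Tags are summed over the length of a region, and the median length of Hox regions was 545 bp. HoxA region 3 (52117497 to 52120977, 3481 bp) was the only Hox region called in all 8 libraries, as 2% of Hox regions and 5.16% of all regions were. Its tags per 1000000 tags of the library (RPM) were 1.74 and 0.667 in the E12.5 pair, 5.87 and 7.37 in the E14.5 pair, 2.53 and 6.55 in the ISC pair, and 6.11 and 7 in the enterocyte pair. The E12.5 libraries were the lowest, ISC replicate 1 stood between them and the rest, and the other 5 libraries overlapped. HoxA region 2 (52112731 to 52113884) had no E12.5 peak. It had 2.49 and 1.86 RPM in the E14.5 pair, 1.17 and 2.51 in the ISC pair, and 2.12 and 2.22 in the enterocyte pair, and the groups overlapped. HoxA region 4 (52129801 to 52130885) had 1.24 and 1.4 RPM in the E14.5 pair, 1.3 and 2.64 in the ISC pair, and 1.8 and 2.1 in the enterocyte pair. Both E14.5 values of this region were below both enterocyte values, and ISC replicate 1 was close to E14.5. HoxA region 6 (52151621 to 52153077) was also called in the 6 later libraries, at 0.709 to 2.5 RPM. The other 4 HoxA regions were each called in 1 or 2 libraries, at 0.430 to 0.792 RPM.

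HoxB had the most regions. By mean RPM its highest was HoxB region 7 (96087684 to 96089632), also the longest in HoxB at 1949 bp. It had 3.10 and 1.95 RPM in the E14.5 pair, 0.679 and 3.82 in the ISC pair, and 3.37 and 2.53 in the enterocyte pair. The ISC replicates were the lowest and the highest of the 6, so the groups overlapped. HoxB region 21 (96204813 to 96206225) had 1.71 and 0.573 RPM in the E14.5 pair, 1.85 and 3.50 in the ISC pair, and 2.47 and 3.07 in the enterocyte pair, and both E14.5 values were below all 4 adult values. HoxB region 5 (96077946 to 96079502) had 1.53 and 1.61 RPM in the E14.5 pair, 0.956 and 2.13 in the ISC pair, and 2.61 and 1.84 in the enterocyte pair. None of these 3 had an E12.5 peak. HoxB region 12 (96099928 to 96100948) was the other Hox region called in both E12.5 libraries, at 1.41 and 0.794 RPM. It had 1.62 and 1.23 RPM in the E14.5 pair, 1.33 and 0.636 in the ISC pair, and 1.46 in enterocyte replicate 2, with no peak in enterocyte replicate 1. Its groups overlapped.

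HoxC and HoxD regions were low in RPM, which sums tags over the length of the peaks. HoxC region 1 (102856663 to 102856963) was called in E14.5 replicate 1 at 0.521 RPM. HoxC region 2 (102857108 to 102858084), 144 bp away, was called in E14.5 replicate 2 at 0.688 RPM and in the enterocyte libraries at 1.43 and 0.971 RPM. HoxC region 3 (102871408 to 102871894) was called in enterocyte replicate 2 at 0.741 RPM. No HoxC peak passed the cutoff in E12.5 or ISC libraries, whose weakest peak anywhere in the genome held 15 to 21 tags. The HoxD region with the highest mean RPM was HoxD region 9 (74593657 to 74594407), 751 bp long and called in 7 libraries. It had 0.923 RPM in E12.5 replicate 1 and 1.33 and 1.23 in the E14.5 pair. The ISC pair had 0.679 and 1.37 RPM and the enterocyte pair 1.02 and 0.588. By the peak caller's score it stood at percentiles from 11.7 (enterocyte replicate 2) to 92.2 (E14.5 replicate 2) of the lists that held it. Next by mean RPM were HoxD region 12 (74604957 to 74605458), at 0.668 to 0.946 RPM in the 4 libraries that called it, and HoxD region 6 (74584276 to 74585159), at 1.15 and 0.562 RPM in enterocytes alone.

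Over all 50 regions, 26 were called on both the embryonic and the adult side, 14 in adult libraries only and 10 in embryonic libraries only. Over the genome these shares were 61.8%, 13.0% and 25.2%, against 52%, 28% and 20% of the Hox regions. HoxD gave 6 of the 14 regions called in adults only, of which 4 were called in enterocyte replicate 2 alone. In all, 15 Hox regions (30%) were called in 1 library, against 28.1% of all regions, and 7 of those 15 (46.7%) came from enterocyte replicate 2, against 7.44% of all regions called in 1 library. Of the Hox regions called in either replicate of a group, both replicates called 20% for E12.5, against 26.3% over the genome. The share was 47.2% for E14.5 (52.9% over the genome), 48.1% for ISC (47.7%) and 47.1% for enterocytes (51.1%).

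Between E12.5 and E14.5, the step of embryonic development, more Hox regions were called. Of the 50, 12 were called in the E14.5 pair and had no E12.5 peak, and 0 had the reverse. The background over all 475861 regions was 23.9% in the first direction and 0.276% in the second, so the 24% in Hox clusters was at the background. Of the 17 Hox regions called in both E14.5 libraries, 12 lacked an E12.5 peak (70.6%), against 54.7% over the genome. Of the 2 Hox regions called in the E12.5 pair, 0 lacked an E14.5 peak, against 3.48% over the genome. HoxB gave 9 of the 12 and HoxA the other 3, regions 2, 4 and 6. By the lower RPM of the E14.5 libraries the 5 strongest were HoxB region 7, HoxA region 2, HoxB region 5, HoxA region 4 and HoxA region 6. Tags summed over all Hox peaks were 8.31 and 2.34 RPM at E12.5 and 32.7 and 30.7 RPM at E14.5, and the ranges did not overlap. The share of all tags in peaks moved the same way over the whole genome (above). Per 1000000 tags in peaks, the Hox sums were 84.4 and 31.4 for E12.5 and 86.7 and 102.6 for E14.5, and relative to autosomal coverage the Hox ratio was 0.256 ± 0.162 against 0.425 ± 0.0521 (SD, n = 2 each), so the gap was smaller on both scales. Covered bases moved with them, 0.986% and 0.272% at E12.5 and 2.58% and 1.93% at E14.5, with 1.46 ± 0.0241 and 2.44 ± 0.389 RPM per covered kb (SD, n = 2 each). An exact permutation test of 2 against 2 libraries cannot go below p = 0.333, and none was made. With lists of equal length, 1 of 24 Hox regions was called at E14.5 and not at E12.5 (5.39% of all regions). Without E14.5 replicate 1 it was 21 of 50 (42%), against 41.0% of all regions.

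For the region called everywhere, HoxA region 3, tag counts could be tested in 1 fit over the 24563 regions called in all 8 libraries. E14.5 was higher than E12.5 by 1.69 ± 0.41 on the log2 scale (SE), with an adjusted p of 0.0828 in edgeR's quasi-likelihood test, which missed the threshold of 0.05. The test gives no SE, so this and the other ± values of edgeR log2 differences were worked back from its F statistic. In that fit 0.285% of all regions were called higher at E14.5 and 0.114% lower. The unadjusted p was 0.00128, and DESeq2 gave an adjusted p of 0.0146 for a log2 difference of 1.68, with 0.924% of all regions called higher. Over the alternatives that kept all 8 libraries, adjusted p ranged from 0.000119 (limma on tags per kb of peak) to 0.113 (edgeR with replicate number in the model). In the limma setting, log2 was taken of RPM per kb of peak plus 0.5, and 99.4% of all regions were called higher at E14.5. The log2 difference of HoxA region 3 was 0.71 there, against a median of 0.69 over all regions. The added 0.5 and the division by peak length put 0.71 on another scale than the edgeR and DESeq2 values. With scaling by library totals alone the log2 difference was 2.46, but the median of all regions then stood at 0.81. Adult minus embryo gave 0.43 ± 0.28 for the same region (edgeR adjusted p = 0.594), where 0.199% of all regions were called higher and 0.0529% lower. Without E14.5 replicate 2 the log2 difference between E14.5 and E12.5 was 1.36 (edgeR adjusted p = 0.321).

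Adult stem cells were then set against the fetal epithelium of E14.5. HoxB region 16 (96165983 to 96166754) and HoxB region 19 (96186653 to 96187556) were called in the ISC pair with no E14.5 peak. The first had 0.709 and 1.30 RPM in ISC and the second 0.648 and 0.891 RPM. HoxB region 8 (96091818 to 96092828) and HoxB region 11 (96098907 to 96099259) were called in the E14.5 pair with no ISC peak, at 1.53 and 0.573 and at 0.694 and 0.573 RPM. HoxB region 8 was also called in enterocyte replicate 2, at 1.48 RPM. These are 2 of 50 in each direction (4%), against a background of 1.91% for ISC and not E14.5 and 6.69% for the reverse, and HoxA, HoxC and HoxD had none. They made up 15.4% of the 13 Hox regions called in the ISC pair, against 6.08% over the genome, and 11.8% of the 17 called in the E14.5 pair, against 15.3%. Summed over all Hox peaks, ISC had 17.3 and 40.0 RPM around the E14.5 values of 32.7 and 30.7. Without ISC replicate 1, 5 Hox regions (10%) were in ISC and not E14.5, against 8.03% of all regions. The reverse count was 3 to 9 when any of E14.5 replicate 1, E14.5 replicate 2, ISC replicate 1 or ISC replicate 2 was left out, against 9.53% to 18.1% of all regions.

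Tag counts of the 8 Hox regions called in all 6 later libraries were tested in 1 fit over 81732 such regions. None of the 8 passed in ISC against E14.5 in edgeR's quasi-likelihood test. The background of calls was 0.00367% for higher in ISC and 0% for lower. DESeq2 called 0 of the 8, with a background of 0.0648% for higher and 0.00856% for lower. In edgeR, 2 of the 8 had an unadjusted p under 0.05, a share that was not counted over all regions. The 2 were HoxB region 21, higher in ISC by 1.14 ± 0.39 on the log2 scale (edgeR adjusted p = 0.502), and HoxA region 3, at -0.74 ± 0.33 (edgeR adjusted p = 0.674). Both values rested on single libraries: HoxB region 21 was at 0.67 without E14.5 replicate 2 and at 1.91 without E14.5 replicate 1, and HoxA region 3 at -0.34 without ISC replicate 1 and at -1.32 without ISC replicate 2. The median log2 difference of the 8 was -0.26, and that of all regions tested -0.01. Recovery was low in this fit: of 200 simulated 2-fold changes, 2.5% were recovered for ISC against E14.5. It was 7% in the 8-library fit for E14.5 against E12.5. The simulated counts were drawn with 1 common spread for all regions, which the real counts need not share.

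**Figure D3:**
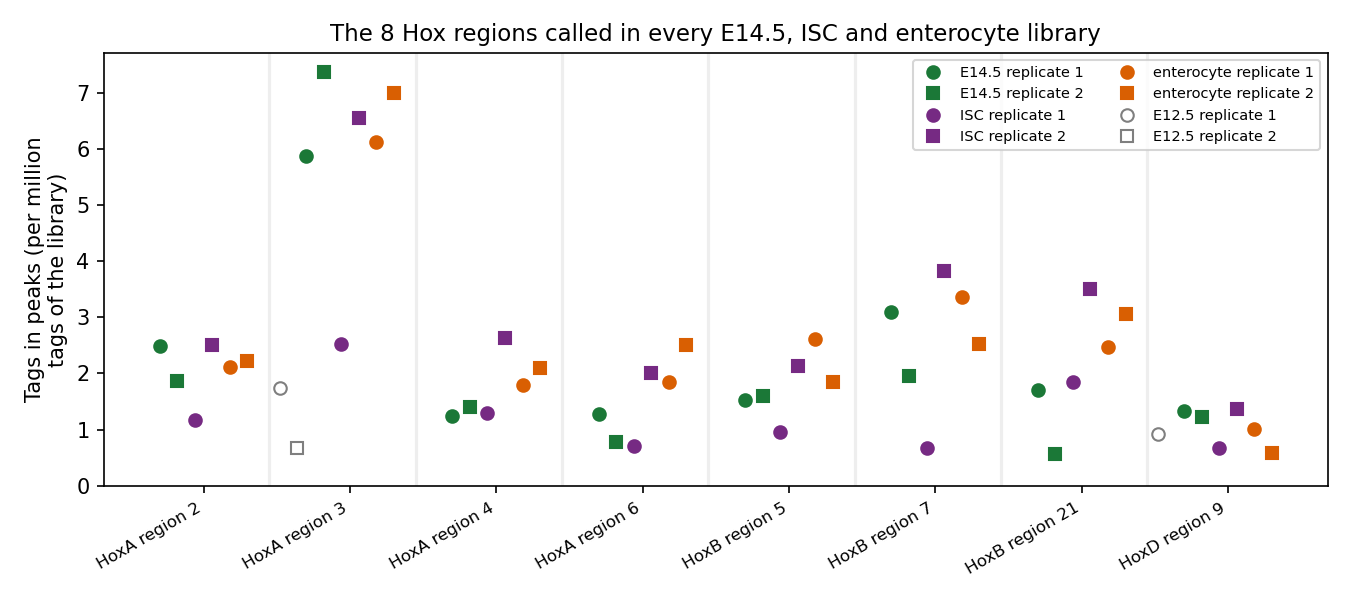
Tags per 1000000 tags of the library (y axis) of the 8 Hox regions called in every E14.5, ISC and enterocyte library (x axis), 1 point per library, with open symbols for E12.5 where a peak was called. HoxA region 3 has the highest values, and ISC replicate 1 (filled purple circles) is the lowest of the 6 later libraries in HoxA regions 2, 3 and 6 and in HoxB regions 5 and 7.

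The enterocyte group was set against ISC, from which it differed in sort gate as well as in labelled cell type. HoxC region 2 and HoxD region 6 were called in both enterocyte libraries and neither ISC library, and HoxD region 12 in both ISC libraries, at 0.894 and 0.668 RPM, and in neither enterocyte library. That is 2 of 50 (4%) and 1 of 50 (2%), against a background of 1.28% and 3.85%. Of the 16 Hox regions called in the enterocyte pair 2 lacked an ISC peak, against 4.61% over the genome, and of the 13 called in the ISC pair 7.69% lacked an enterocyte peak, against 12.3%. HoxC region 2 is the only HoxC region in these comparisons, and it was also called in E14.5 replicate 2. Without enterocyte replicate 1 the count in enterocytes and not ISC was 12 (24%, against 6.90% of all regions), and without ISC replicate 2 it was 6 (12%, against 6.68%). The reverse count was 2 to 4 when any 1 of the 4 libraries was left out, against 5.79% to 15.2% of all regions. None of the 8 shared regions passed edgeR's quasi-likelihood test, where 0% of all regions were called in either direction, and 0 of the 8 had an unadjusted p under 0.05. The share of all regions under that unadjusted p was not counted. DESeq2 called 0 of the 8 as well, against 0.00245% of all regions higher and 0% lower. The median log2 difference of the 8 was 0.32 and 6 of the 8 were higher in enterocytes, against 49.8% of all regions. On tags per kb of peak (limma), 0 of the 8 were higher in enterocytes, with the median of all regions at -0.27. Without ISC replicate 1, 3 of the 8 were higher in enterocytes, so the direction turned on that library.

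Setting the 4 adult against the 4 embryonic libraries asked what marks the adult epithelium. HoxB region 16 was called in all 4 adult libraries, at 0.709 and 1.30 RPM in ISC and 1.02 and 1.15 in enterocytes, and in no embryonic library. It was 1 of 50 regions (2%), against a background of 0.402%, and 1 of the 9 Hox regions called in all adult libraries, against 2.03% over the genome. Without enterocyte replicate 1 the count was 2 (4%, against 0.827% of all regions). The reverse count was 0, against a background of 0.139%, and 0 of the 2 Hox regions called in all embryonic libraries, against 2.04%. Summed Hox tags averaged 33.5 ± 12 RPM in adults and 18.5 ± 15.4 RPM in embryos (SD, n = 4 each), a difference of 15.0 RPM (exact two-sided permutation p = 0.200, adjusted p = 0.333 over 5 tests, smallest possible p 0.0286). The sides overlapped, and the test took the libraries as exchangeable although each side holds 2 groups. Against the E14.5 libraries alone, leaving out E12.5, the adult difference was 1.83 RPM (exact permutation, adjusted p = 1), an alternative chosen after seeing the data, as were the ratio to autosomal coverage below and the counts without HoxB. By cluster the difference was 5.55 RPM in HoxA, 8 in HoxB, 0.483 in HoxC and 0.985 in HoxD, with adjusted p from 0.333 to 0.571 by the exact permutation test. HoxD turned to -0.435 with lists of equal length. Covered bases were 3.00% ± 1.11 in adults and 1.44% ± 1.02 in embryos (exact permutation p = 0.114, adjusted p = 0.190, n = 4 each). With each peak cut to 100 bp on either side of its summit, the difference fell from 1.56 to 0.147 percentage points (exact permutation, adjusted p = 1), in HoxA from 2.19 to 0.116 and in HoxB from 2.66 to 0.214. Divided by the autosomal coverage of the same library, the Hox ratio was 0.477 ± 0.116 in adults and 0.340 ± 0.139 in embryos (exact permutation, adjusted p = 0.381, n = 4 each).

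**Figure D4:**
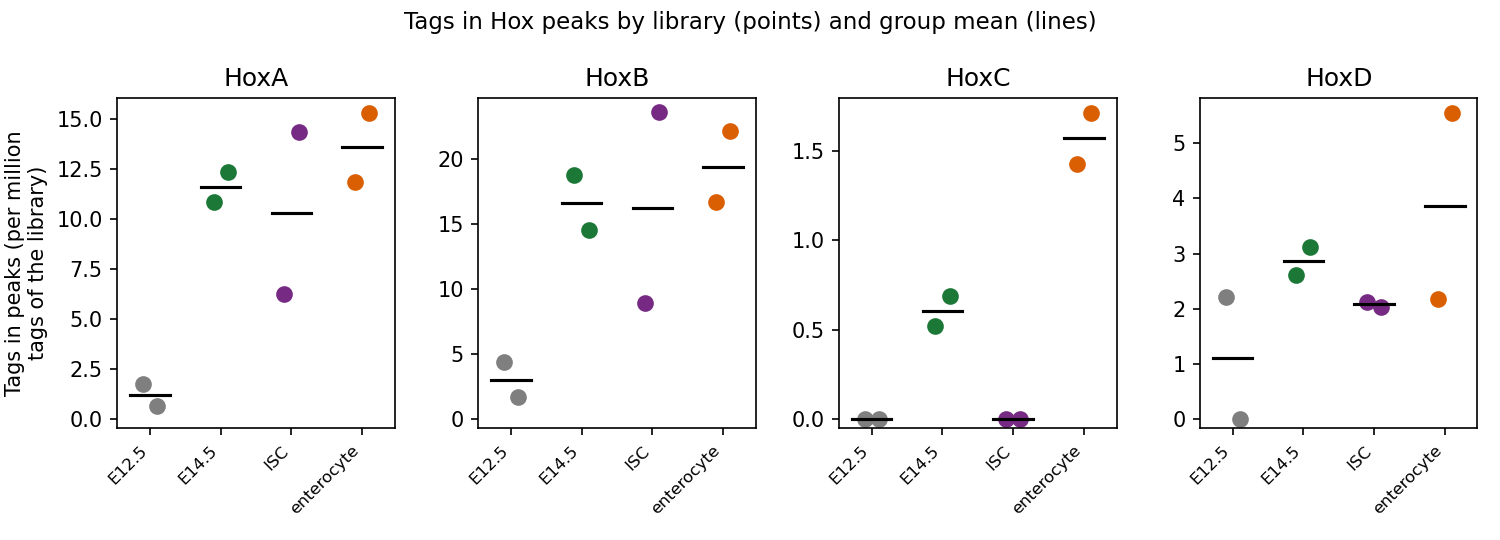
Tags in Hox peaks per 1000000 tags of the library (y axis, scaled for each panel) by cluster, with 1 point per library and a line at the mean of each group of 2. E12.5 libraries are lowest in HoxA and HoxB, the ISC replicates lie far apart there, and in HoxC only E14.5 and enterocyte libraries are above 0.

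In order of group means, summed Hox tags were 38.4 ± 8.84 RPM for enterocytes, 31.7 ± 1.45 for E14.5, 28.6 ± 16 for ISC and 5.33 ± 4.22 for E12.5 (SD, n = 2 each). The first 3 overlapped. Enterocytes had the highest mean in each of the 4 clusters, but in HoxD that rested on replicate 2 (5.54 RPM), since replicate 1 (2.17 RPM) was below both E14.5 libraries (2.60 and 3.12 RPM). In HoxC both enterocyte values (1.43 and 1.71 RPM) were above those of all other libraries. Enterocytes also had the longest peaks, with medians of 849 and 615 bp, and their tags per covered kb, 1.73 ± 0.141 RPM, were below those of E14.5 and ISC (2.44 ± 0.389 and 2.13 ± 0.258). The part of peak length in these sums was not tested. MBD capture gives no percent methylation, and more methylated copies per cell cannot be told apart from more cells that carry them.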

How the data were processed

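MBD libraries were made from 1 µg of DNA sheared to 150 to 250 bp, per the labels' protocols. The submitters' processing notes name bcl2fastq 1.8.4, Bowtie 1.1.2, SAMtools 1.2 and build mm9. Peaks were called by the authors with MACS 1.4.2 on each library without a control, at a p cutoff of 1e-05, per the file headers. The tags per peak are counts as deposited. The score is the caller's -log10 p-value multiplied by 10 and the fold is a ratio to local background, both per the file headers. The score ranked peaks, and the fold was not used.

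Peaks were merged at 1 bp overlap. RPM is tags over the library total, scaled to 1000000. Autosomal length was taken as the last peak end of each chromosome. Tags in regions called in every library were tested with edgeR 4.0.16 (quasi-likelihood, TMM), with DESeq2 1.42.0 and limma 3.58.1 as alternatives, Benjamini-Hochberg adjusted over all such regions, and tested on simulated data. Peak widths differ between libraries and enter those counts. Regions named were the 3 highest by mean RPM per cluster, up to 5 per direction and comparison, and the longest peak-free stretch per cluster. HoxB region 12 was outside this rule and was named after its values were seen. The members and lists were chosen with earlier results of these data known. Genes of the cofactor and marker lists were not analysed here, since the gene table is of another build. Replicate numbers were not used to pair libraries in the main tests.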

Additional observations from a re-analysis of the deposited data

How the results depend on the processing

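Coverage below the flanks kept its direction, on the mean over libraries, with lists of equal length (the 84990 highest-scoring peaks each) and with 500 kb flanks. The gap was -1.94 percentage points for the 4 clusters, -1.76 for HoxA, -1.97 for HoxB and -2.20 for HoxC with equal lists, and -6.45 for HoxD with 500 kb flanks. The side of HoxA, HoxC and HoxD that held the peaks was the same with equal lists, and 10 kb bins could not change it. Counts of Hox regions between groups moved, and so did the counts over all regions, whose percentages stand in parentheses. The Hox counts are out of 50, but out of 24 with equal lists, 26 with stricter lists and 23 without HoxB. For E14.5 and not E12.5, equal lists gave 4.17% of Hox regions and stricter lists 15.4%. Merging within 500 bp gave 13 of 43 in that comparison (30.2%, against 25.0% of all regions). For E14.5 and not E12.5 (12), equal lists gave 1 (5.39%), the stricter 50% of each list 4 (20.1%), a peak over 50% of the region 4 (10.2%), at least 1 replicate 26 (56.8%), leaving out HoxB 3 of 23 (23.9%), and leaving out a replicate 12 to 21 (29.4% to 41.0%). For ISC and not E14.5 (2), these were 0 (3.24%), 0 (2.16%), 1 (4.20%), 6 (11.2%), 0 (1.91%) and 2 to 5 (4.33% to 8.03%). For E14.5 and not ISC (2), they were 0 (2.98%), 1 (6.59%), 1 (3.89%), 15 (27.9%), 0 (6.69%) and 3 to 9 (9.53% to 18.1%). For enterocytes and not ISC (2), equal lists gave 0 (2.88%), stricter lists 0 (1.53%), a peak over 50% of the region 1 (3.18%), at least 1 replicate 13 (8.86%) and leaving out a replicate 3 to 12 (2.48% to 6.90%). For ISC and not enterocytes (1), equal lists gave 0 (2.31%), stricter lists 0 (3.70%), at least 1 replicate 6 (20.6%) and leaving out a replicate 2 to 4 (5.79% to 15.2%). For adults and not embryos (1), equal lists gave 0 (0.638%), stricter lists 0 (0.469%), a peak over 50% of the region 0 (1.25%), at least 1 replicate 14 (13.0%), leaving out HoxB 0 (0.402%) and leaving out a replicate 1 to 2 (0.431% to 1.12%). For embryos and not adults (0), at least 1 replicate gave 10 (25.2%). The adult excess in HoxD turned to -0.435, -0.860 and -0.161 RPM with equal lists, stricter lists and scaling to tags in peaks, and its covered bases to -0.120 and -0.328 percentage points with equal and stricter lists. No adult against embryo difference passed the test in the alternatives run, of which the replicate block (smallest possible p 0.0556) and E14.5 alone (0.0667) could not pass. HoxA region 3 was called higher at E14.5, a count of 1 in place of 0, with DESeq2, with library totals and with limma on tags per kb of peak, where 0.924%, 36.7% and 99.4% of all regions were called higher. The causes were not tested. Deviations of same-numbered replicates, at regions called in all 8 libraries, correlated at r from -0.017 to 0.067 over 6 pairs of groups. Same-numbered libraries thus shared little deviation at those regions. That cannot show whether they shared animals or handling. With the replicate block the summed Hox difference stayed 15.0 RPM (exact permutation within numbers, adjusted p = 0.463), HoxA region 3 gave an edgeR adjusted p of 0.113, and no count of called Hox regions changed.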
